A study of Oryza sativa and Triticum aestivum and Oryza sativa Japonica Group with 26 samples.

Results

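The ends of the rice chromosomes were described from histone mark peaks of 2 cultivars. An end was the first 1 Mb or the last 1 Mb of chromosomes 1 to 12, the last 1 Mb being counted back from the furthest peak end over all rice lists. The starts of chromosomes 11 and 12, which carry a known duplicated segment in rice, were left out, so that 22 ends remained, 10 first and 12 last. They made up 22 Mb, 5.90% of the 373 Mb of the 12 chromosomes. Of 355306 peaks in 20 lists, 28295 (7.96%) had their midpoint at an end.

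The series used reads from chromatin immunoprecipitation (ChIP) to assemble the core genome of wheat, and its 26 samples include rice. The rice lists came from young panicles of HHZ (indica) and JZ1560 (japonica), grown in field soil from seeds germinated in water and cross-linked with formaldehyde. No genetic change or further treatment is named. H3K27me3 was profiled in 3 libraries of each cultivar and H3K4me1 in 2 of each. H3K4me3 had 1 library of HHZ and 2 of JZ1560, H3K27ac had 2 of HHZ and 1 of JZ1560, and H3K36me3 and input had 1 of each. The labels do not say whether replicates are separate plants, so p-values measure the spread between libraries, which may be technical. A young panicle holds several tissues, and fewer cells with a mark and less mark per cell cannot be told apart.

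H3K27me3 is the mark of Polycomb group repression and in plants often covers whole genes that are kept silent. H3K4me3 and H3K27ac sit near the starts of active genes, H3K36me3 covers transcribed gene bodies, and in plants H3K4me1 also lies over gene bodies. In rice, as in other grasses, genes are denser along the arms and towards the ends, and repeats are denser around the centromeres. H3K4me1, H3K4me3, H3K27ac and H3K36me3 are called active marks below.

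Cover is the percentage of bases under at least 1 peak. Lists held between 10486 and 27487 peaks, and read depth is not known from a peak list, so cover is compared chiefly as the ratio of ends to rest within a library. The labels also list the H3K27me3 antibody for the input libraries, which were taken as inputs from their titles. H3K27me3 replicate 3 of HHZ stood apart from the other H3K27me3 lists. At the ends its Jaccard index, shared bases over all bases of both lists, was 0.0346 to 0.111 with the other 5 H3K27me3 lists but 0.278 with the input of HHZ and 0.335 with that of JZ1560. Its index was as high with some active-mark lists, 0.331 with H3K4me3 replicate 2 of JZ1560, 0.328 with H3K27ac of JZ1560 and 0.291 with H3K4me3 of HHZ. H3K27me3 values are therefore given with and without it, or marked where it was left out.

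Active marks covered more of the ends than of the rest of the chromosomes. In HHZ, 25.1% of the ends and 16.2% of the rest lay under H3K36me3, and in JZ1560 27.8% and 18.4%. For H3K4me1 it was 12.1% of the ends against 7.09% of the rest in HHZ replicate 1 and 12.04% against 6.93% in replicate 2. In JZ1560 H3K4me1 covered 24.3% against 16.0% in replicate 1 and 25.5% against 16.8% in replicate 2. Thus H3K4me1 at the ends stood 1.72 times above the rest in HHZ and 1.52 times in JZ1560, the first being the highest ratio of any group.

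H3K4me3 covered 12.3% of the ends and 7.79% of the rest in the HHZ library. In the JZ1560 libraries it covered 11.6% against 7.62% and 20.8% against 14.6%. H3K27ac covered 4.86% of the ends in both HHZ libraries against 3.10% and 3.07% of the rest, and 23.8% against 17.6% in the JZ1560 library. The end-to-rest ratios of these 2 marks were alike in spite of the wide range in cover, from 1.35 in JZ1560 H3K27ac to 1.59 in HHZ H3K27ac replicate 2.

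**Figure D1:**
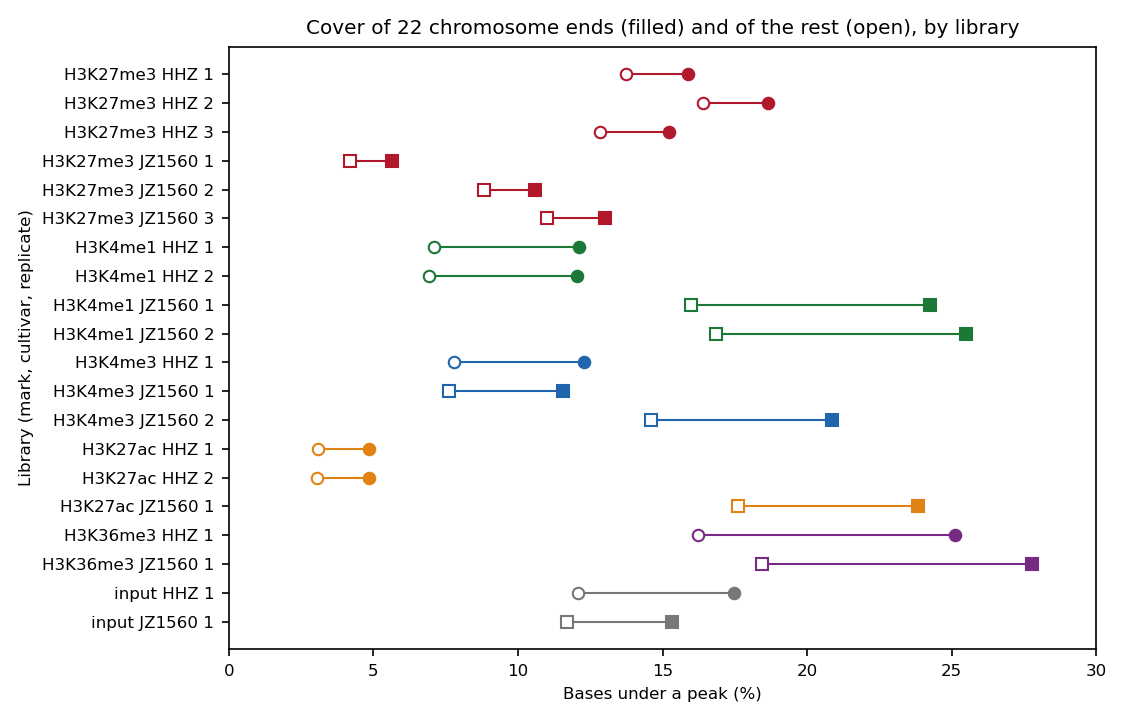
Percentage of bases under a peak at the 22 chromosome ends (filled) and in the rest of the chromosomes (open) for each of the 20 lists, with circles for HHZ and squares for JZ1560. The filled symbol lies to the right of the open one in all 20 lists, and the gap is narrower for H3K27me3 than for H3K4me1 or H3K36me3.

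Over the 12 libraries of active marks the log2 ratio of cover at ends to rest was 0.63 ± 0.10 (SD, n = 12), a fold of 1.54, with the lowest library at 0.44, the median at 0.62 and the highest at 0.80. It was above 0 in 12 of 12 libraries (two-sided exact permutation of end and rest within libraries, p = 4.883e-04, the smallest that 4096 arrangements allow; Benjamini-Hochberg adjusted over 13 tests, p = 0.00159). The test takes libraries of all 4 marks as exchangeable. The inputs had log2 ratios of 0.54 in HHZ and 0.39 in JZ1560, and each of the 12 libraries lay above the input of its own cultivar, a difference that was not tested. With only the peaks that share no base with an input peak of the same cultivar, the mean log2 ratio of the active marks was 0.41 (adjusted exact permutation p = 0.00212).

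H3K27me3 was also denser at the ends, but by less. In HHZ it covered 15.9%, 18.7% and 15.2% of the ends in replicates 1, 2 and 3, against 13.7%, 16.4% and 12.9% of the rest. In JZ1560 it covered 5.64%, 10.6% and 13.03% of the ends, against 4.19%, 8.82% and 10.99% of the rest. The ends lay above the rest in 6 of 6 libraries, whereas the cover itself differed more than 3-fold between libraries.

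The mean log2 ratio of H3K27me3 was 0.26 ± 0.09 (SD, n = 6), a fold of 1.20. By exact permutation, two-sided, p was 0.03125, the smallest that 6 libraries allow, and the adjusted p of 0.0508 missed the threshold of 0.05. Leaving out HHZ replicate 3 gave a mean of 0.27 (exact permutation p = 0.0625, the smallest that 5 libraries allow). With each end weighted equally against its own chromosome the mean was 0.07 (adjusted exact permutation p = 0.0508).

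The ratio of H3K27me3 was lower than that of the active marks by 0.36 on the log2 scale (6 against 12 libraries, exact two-sided permutation p = 5.387e-05, the smallest of 18564 arrangements; adjusted p = 7.003e-04). The permutation takes libraries of all marks and both cultivars as exchangeable, although several libraries share a mark. The p-values of this comparison thus measure the spread between libraries, not between marks. With HHZ replicate 3 left out the difference was -0.36 (adjusted exact permutation p = 0.00159). Among peaks that share no base with an input peak it was -0.21 (adjusted exact permutation p = 0.0299). The log2 ratio lay below that of the input of the same cultivar in 5 of the 6 H3K27me3 libraries, the exception being JZ1560 replicate 1 at 0.43.

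More peaks, rather than wider ones, made up most of the cover gained at the ends by active marks. H3K4me1 had 86.8 and 88.7 peaks per Mb at the ends of HHZ against 52.5 and 52.4 in the rest. In JZ1560 it had 62.1 and 61.8 against 39.9 and 40.2. HHZ thus had more H3K4me1 peaks per Mb than JZ1560 at the ends although it had less cover there, its median H3K4me1 peak being 1120 to 1144 bp against 3271 to 3488 bp.

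Over the 12 active libraries peaks per Mb were higher at the ends by 0.58 ± 0.12 on the log2 scale, in 12 of 12 libraries (exact permutation p = 4.883e-04, adjusted p = 0.00159). The median width was higher by 0.05 ± 0.04 (adjusted exact permutation p = 0.00635), a fold of 1.03. That width difference was in 10 of 12 libraries, since both JZ1560 H3K4me1 libraries had narrower peaks at the ends, 3271 bp against 3344 bp and 3488 bp against 3507 bp. It did not pass the threshold among peaks free of input peaks (0.03, adjusted exact permutation p = 0.174).

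For H3K27me3 both terms were small. Peaks per Mb at the ends were 37.3, 42.9 and 82.5 in HHZ replicates 1, 2 and 3 and 39.9, 35.2 and 34.2 in JZ1560, against 34.9, 40.4 and 69.7 and 32.6, 30.3 and 30.3 in the rest. The mean log2 ratio was 0.18 ± 0.08 for peaks per Mb and 0.10 ± 0.05 for median width, each above 0 in 6 of 6 libraries (exact permutation p = 0.03125, adjusted p = 0.0508 for each). Without HHZ replicate 3 they were 0.17 and 0.11 (adjusted exact permutation p = 0.0903 for each). HHZ replicate 3 had about as many peaks at the ends as the inputs, with 85.5 and 76.3 per Mb.

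Peaks of at least 10 kb were found at the ends for H3K27me3 and H3K36me3 and, in JZ1560, for H3K4me1 and H3K27ac, and not for H3K4me3. HHZ H3K27me3 replicates 1 and 2 had 54 and 69 of them, 6.59% and 7.31% of their peaks at the ends, against 6.04% and 6.67% in the rest. JZ1560 replicates 2 and 3 had 23 and 40, whereas JZ1560 replicate 1 and HHZ replicate 3 had 0. The share of such wide peaks at the ends therefore stayed within 1 percentage point of that in the rest in each of the 4 libraries that had them.

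H3K36me3, H3K4me1, H3K4me3 and the HHZ libraries of H3K27ac were highest in the outermost Mb and lower further in. H3K4me3 of HHZ, for example, covered 12.3% of the first Mb and 11.3% of the second. H3K36me3 covered 26.4% of the first Mb from an end, 24.1% of the second, 22.1% of the fifth and 14.0% of the Mb that starts 9 Mb inwards (means of 2 libraries). H3K4me1 went from 18.5% to 9.10% over the same distance, and input from 16.4%, with 17.7% in the second Mb, to 9.88%. H3K27ac of JZ1560 differed, with 23.8% in the first Mb, 24.3% in the second and 23.7% in the fifth. H3K27me3 had no such slope, with 12.8% in the first Mb, 13.3% in the second, 11.03% in the fourth, 13.1% in the eighth and 10.3% in the innermost (means of 5 libraries without HHZ replicate 3). With it the first, second and innermost Mb had 13.2%, 13.9% and 10.6%.

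The outermost Mb was set against the next 4 Mb of the same ends as well. The log2 ratio of the active marks was then 0.19, in place of 0.63 against the whole rest (adjusted exact permutation p = 0.00140). For H3K27me3 it was 0.04 (exact permutation p = 0.281). The ends thus differed from the neighbouring 4 Mb much less than from the chromosomes as a whole.

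**Figure D2:**
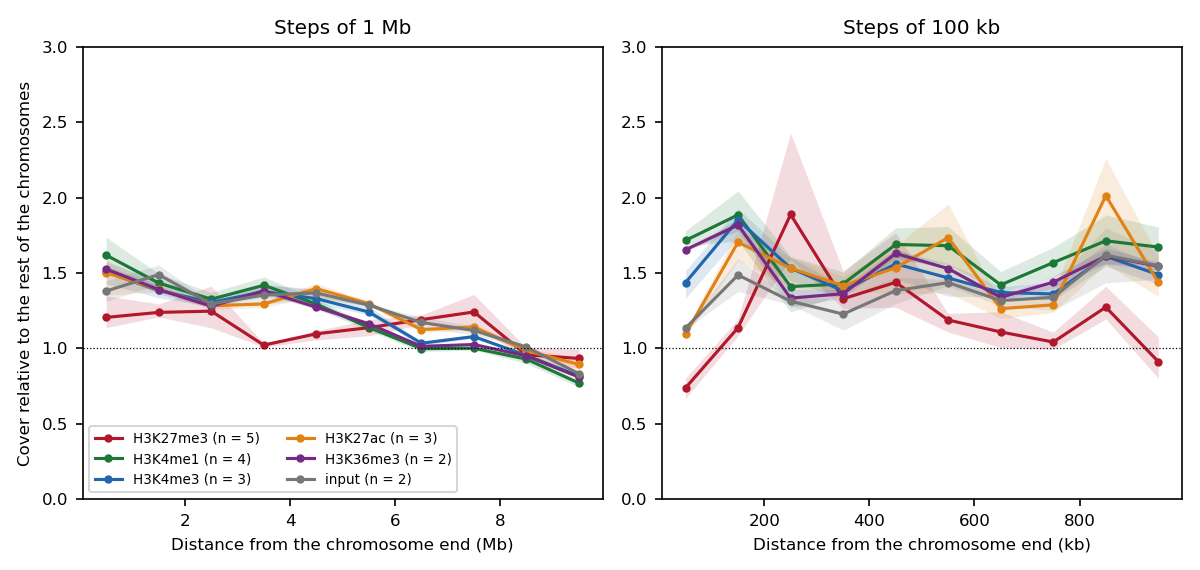
Cover relative to the rest of the chromosomes by distance from the chromosome end, in steps of 1 Mb (left) and of 100 kb within the outermost Mb (right). Lines are means over libraries (n in the key, H3K27me3 without HHZ replicate 3) and bands run from the lowest to the highest library. H3K27me3 lies at 0.74 in the outermost 100 kb and at 1.89 between 200 and 300 kb, while H3K36me3 lies at 1.65 and 1.33.

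Within the outermost Mb, H3K27me3 was sparse at the very tip. In the outermost 100 kb it covered 10.4% and 11.6% in HHZ replicates 1 and 2 and 2.797%, 7.08% and 8.24% in JZ1560, against 16.5%, 19.4%, 5.96%, 10.96% and 13.6% in the next 900 kb. The ratio was between 0.47 and 0.65 in these 5 libraries, with a mean of 0.59. HHZ replicate 3 had a ratio of 0.89, and with it the mean was 0.64 ± 0.14 (SD, n = 6). This measure was chosen after the values had been seen and was not tested.

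The outermost 20 kb held even less H3K27me3, 3.09% on average over the 5 libraries. H3K36me3 by contrast covered 28.7% of the outermost 100 kb and 26.2% of the next 900 kb, a ratio of 1.09, and H3K4me1 had a ratio of 1.07. H3K4me3 had a ratio of 0.95, H3K27ac 0.71 and input 0.81. At 100 kb the tip was therefore poorer than the next 900 kb in H3K27me3, H3K27ac and input, slightly so in H3K4me3 (0.93 to 0.96 in 3 libraries), and not in H3K36me3 or H3K4me1. In the outermost 20 kb H3K4me1 of HHZ was also lower, at 0.77 and 0.78 of the next 900 kb, against 1.03 and 1.02 in JZ1560.

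The last ends stop at a peak by construction, so the tip was also examined at the 10 first ends alone. There the H3K27me3 ratio of outer 100 kb to next 900 kb was 0.36 without HHZ replicate 3 (range 0.28 to 0.40) and 0.46 with it, against 0.80 and 0.81 at the last ends. The ratio of H3K36me3 at the first ends was 1.07 and that of H3K4me1 was 1.05. No H3K27me3 peak of these 5 libraries lay in the outermost 100 kb at 5 of 22 ends, the starts of chromosomes 3, 6 and 9 and the last ends of chromosomes 5 and 7. Active marks also began far in at most of these ends. Their median distances were 63.5, 131 and 152 kb at the starts, and 175 and 8.56 kb at the last ends, in that order. The share of all 100 kb stretches without H3K27me3 was not counted.

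Between 200 and 300 kb from the end H3K27me3 was highest, covering 19.3% on average without HHZ replicate 3 and 18.6% with it. It was above the mean of the same end's whole Mb at 14 of 22 ends in this step. The start of chromosome 7 held 41.3%, the start of chromosome 3 held 36.2% and the last end of chromosome 11 held 33.8% there. The median over ends was 18.3%. The step was picked as the highest after the values had been seen, so its count and median are descriptions. In the outermost 100 kb 5 of 22 ends were above the mean of their whole Mb, with a median of 8.03%. Other steps were not counted in this way.

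H3K27me3 also began furthest from position 1. Over the 10 first ends the median distance was 84.6 kb for H3K27me3 (5 libraries, range 71.1 to 108 kb), 47.5 kb for active marks (12 libraries, range 38.9 to 56.6 kb) and 29.6 kb for input. HHZ H3K27me3 replicate 3 had a median of 10.6 kb. The 5 H3K27me3 medians and the 12 active medians did not overlap, but with HHZ replicate 3 included they did. The distance also depends on how many peaks a list has. These 5 lists had 34.2 to 42.9 peaks per Mb at the ends, and the active lists 42.1 to 92.1. How far this sets the distances was not tested. The longest distance from the tip to any ChIP peak was 62.9 kb, at the start of chromosome 3. The shortest among the first ends was 0.222 kb, to an H3K36me3 peak of HHZ at the start of chromosome 2.

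The last ends had more cover by active marks than the first ends on average, though not on each chromosome. Over the 10 chromosomes with both ends, the first Mb was 21.8% and the last 30.8% under H3K36me3 in HHZ, and 23.8% and 34.2% in JZ1560. Cover by H3K4me1 was 10.7% of the first Mb in both HHZ libraries against 14.8% and 14.7% of the last, and 21.0% and 22.3% against 29.7% and 31.1% in JZ1560. Each active library had more mean cover at the last ends.

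The mean difference, first minus last, was -6.33 ± 3.22 percentage points (SD, n = 12; exact two-sided permutation p = 4.883e-04, adjusted p = 0.00159). It ran from -10.7 in JZ1560 H3K27ac to -1.69 in HHZ H3K27ac. The inputs went the same way, with -7.95 in HHZ and -8.63 in JZ1560. Among active-mark peaks that share no base with an input peak the difference was -0.64 points (adjusted exact permutation p = 0.00212). Over the bases outside input peaks it was -4.89 points (adjusted exact permutation p = 0.00159).

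Chromosomes 10, 4 and 9 carried most of this difference. Averaged over the 12 active libraries, the last Mb exceeded the first by 18.3, 15.2 and 13.8 points there. It did so by 8.46 points on chromosome 2, 7.55 on chromosome 7, 2.93 on chromosome 1, 2.25 on chromosome 8 and 0.974 on chromosome 3. On chromosome 5 the first Mb had more cover in 12 of 12 libraries, 21.3% against 15.99% on average, and on chromosome 6 in 9 of 12. The p-value above is over libraries and says nothing of the spread between chromosomes.

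H3K27me3 did not show the difference between first and last ends. It covered 15.8% and 18.9% of the first Mb in HHZ replicates 1 and 2 against 15.6% and 18.2% of the last, and 5.98%, 10.7% and 13.2% against 5.39%, 10.3% and 12.7% in JZ1560. HHZ replicate 3 covered 12.5% against 19.4%, close to the inputs. The mean difference was -0.74 points with it (exact permutation p = 1) and 0.49 points without it (exact permutation p = 0.0625, the smallest that 5 libraries allow). The sign of the mean thus rested on that 1 library.

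**Figure D3:**
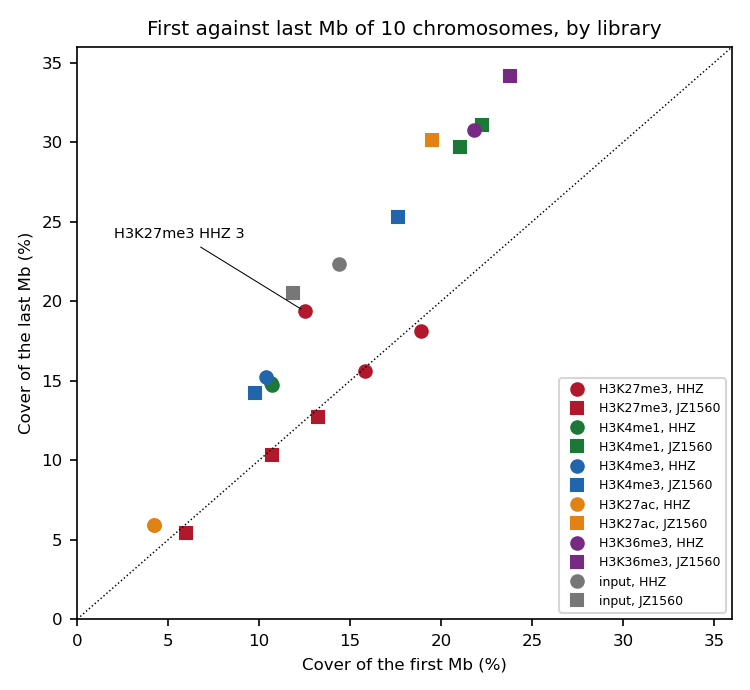
Cover of the first Mb against cover of the last Mb over 10 chromosomes, 1 symbol per list, with a dotted line of equality. Active marks and inputs lie above the line and 5 H3K27me3 lists lie close to it, while HHZ H3K27me3 replicate 3 lies with the inputs at 12.5% and 19.4%.

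The 22 ends were far from uniform. Every library lay above the rest of the same chromosome at 18 ends for H3K4me1 (background 43.6% of 365 tiles of 1 Mb), at 18 for H3K4me3 (46.8%), at 18 for H3K36me3 (48.5%) and at 14 for H3K27ac (43.0%). For input it was 16 ends (43.3%), and for all 12 active libraries together 14 ends (33.4%). For H3K27me3 it was 8 ends with all 6 libraries (23.8%) and 10 ends without HHZ replicate 3 (35.1%). The ends exceeded the background share for each mark, with 81.8% of ends against 43.6% to 48.5% of tiles for H3K4me1, H3K4me3 and H3K36me3, and 36.4% against 23.8% for H3K27me3.

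The last Mb of chromosome 2 had the most cover for H3K4me1, H3K4me3 and H3K36me3, and it was the highest of all 365 tiles for each of them. H3K36me3 covered 41.2% of it in HHZ and 45.5% in JZ1560, against 22.4% in the rest of chromosome 2. H3K4me1 covered 22.6% and 22.8% in HHZ and 39.0% and 41.2% in JZ1560. The last Mb of chromosome 4 had the highest mean for H3K27ac (18.7%) and for input (28.2%), and the second highest for H3K4me3 (21.2%) and H3K36me3 (35.6%). The other ends among the 3 highest were the last of chromosome 1 (24.8%) and the start of chromosome 2 (23.6%) for H3K4me1 and the last of chromosome 3 for H3K4me3 (20.6%). For H3K27ac (15.7%) and H3K36me3 (34.8%) it was the last of chromosome 10, and for input the last of chromosome 7 (24.5%). The H3K27ac order rested on the JZ1560 library, which had 41.7% at the last end of chromosome 4. Both HHZ H3K27ac libraries had more at the last end of chromosome 2 (8.82% and 8.42%) than at that of chromosome 4 (6.75% and 7.69%) or of chromosome 10 (5.38% and 6.496%).

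At 4 ends no library of H3K4me1, H3K4me3 or H3K36me3 exceeded the rest of its chromosome. They were the starts of chromosomes 4, 9 and 10 and the last end of chromosome 11. The share of all tiles with no library of these marks above was not counted. At the start of chromosome 10 H3K36me3 covered 3.20% in HHZ and 5.41% in JZ1560, against 13.2% in the rest of the chromosome, and H3K4me1 covered 1.39% to 4.89% over 4 libraries. H3K27ac was lowest at the start of chromosome 9, with 0.66%, 0.87% and 7.13%. The inputs were low at the same ends, 2.68% at the start of chromosome 10, 3.66% at the start of chromosome 9 and 4.56% at the last end of chromosome 11.

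**Figure D4:**
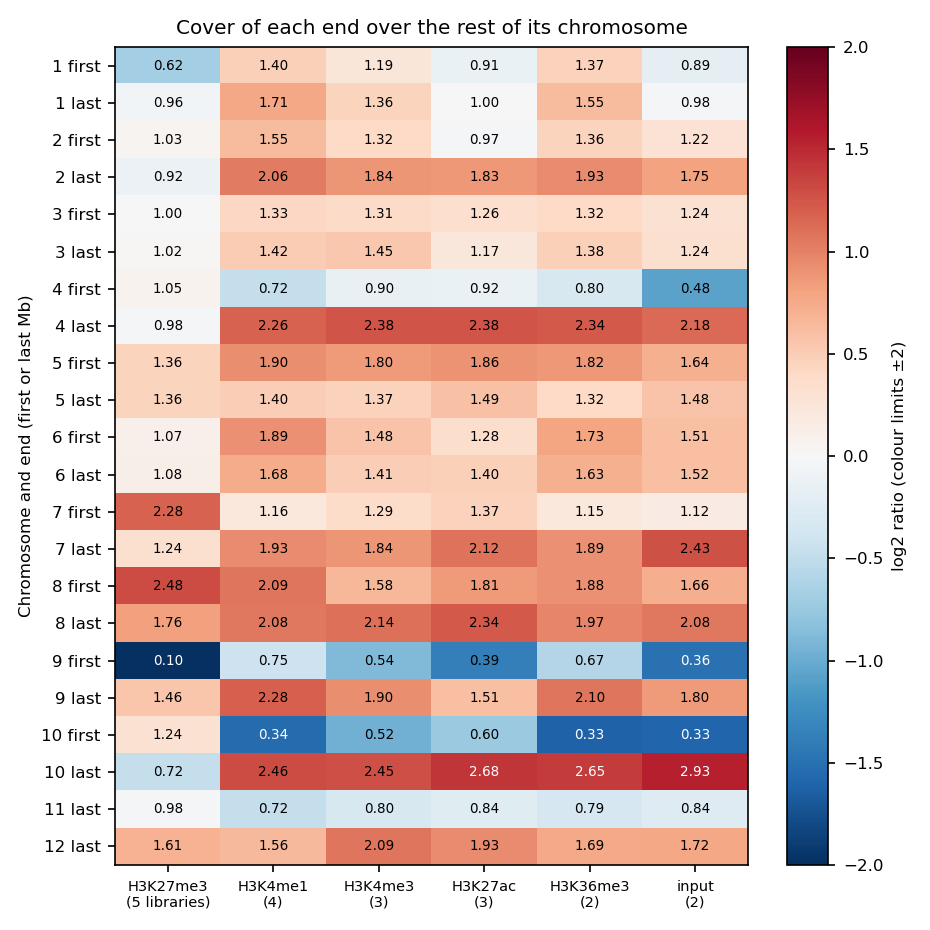
Ratio of the cover of each end to that of the rest of its chromosome, as means over libraries (number under each mark), with colour on a log2 scale. The start of chromosome 9 is at 0.10 for H3K27me3 and the start of chromosome 8 at 2.48, while H3K36me3 runs from 0.33 at the start of chromosome 10 to 2.65 at its other end.

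For H3K36me3 chromosome 10 showed the widest contrast between its 2 ends. H3K36me3 covered 34.2% and 35.5% of its last Mb against 3.20% and 5.41% of its first. H3K27me3 went the other way, with a mean of 12.6% at the start and 7.32% at the last end without HHZ replicate 3, and 10.9% and 9.73% with it.

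H3K27me3 was densest at the starts of chromosomes 8 and 7. At the start of chromosome 8 it covered 30.6% and 34.4% in HHZ replicates 1 and 2 and 14.5%, 21.7% and 26.5% in JZ1560, 2.48 times the rest of the chromosome on average. At the start of chromosome 7 it covered 30.3% and 35.5% in HHZ and 11.1%, 18.9% and 23.1% in JZ1560, a ratio of 2.28. HHZ replicate 3 had 14.6% and 13.8% at these 2 ends. The last end of chromosome 8 followed with a mean of 18.1%.

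The start of chromosome 9 was nearly free of H3K27me3. It covered 1.97% and 2.797% in HHZ replicates 1 and 2 and 0.0708%, 0.401% and 0.577% in JZ1560, with 1 to 12 peaks per library, against 11.9% in the rest of the chromosome. HHZ replicate 3 had 3.73% and 25 peaks there. The next lowest ends were the last of chromosome 10 (7.32% without HHZ replicate 3, 9.73% with it) and the start of chromosome 1 (7.60% and 8.79%). No H3K27me3 library exceeded the rest of the chromosome at the starts of chromosomes 1 and 9, and without HHZ replicate 3 this held at 4 ends, the last ends of chromosomes 2 and 10 being added. The share of all tiles with no H3K27me3 library above was not counted.

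The cover by H3K27me3 and that by active marks had a Spearman's rho of -0.15 and a Pearson's r of 0.10 across the 22 ends without HHZ replicate 3, and 0.18 and 0.30 with it. The cultivars gave a similar order of ends, with rho 0.80 and r 0.95 for H3K27me3 without HHZ replicate 3, 0.76 and 0.87 with it, and 0.82 and 0.97 for H3K4me1. Active marks and input followed each other closely, with rho 0.93 and r 0.96. These are descriptions over ends, which share libraries, and base composition and mappability at the ends were not measured. HHZ replicate 3 had rho 0.97 with the input of JZ1560 and 0.90 with that of HHZ, 0.59 to 0.95 with the active libraries, and -0.12 to 0.01 with the other H3K27me3 libraries.

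**Figure D5:**
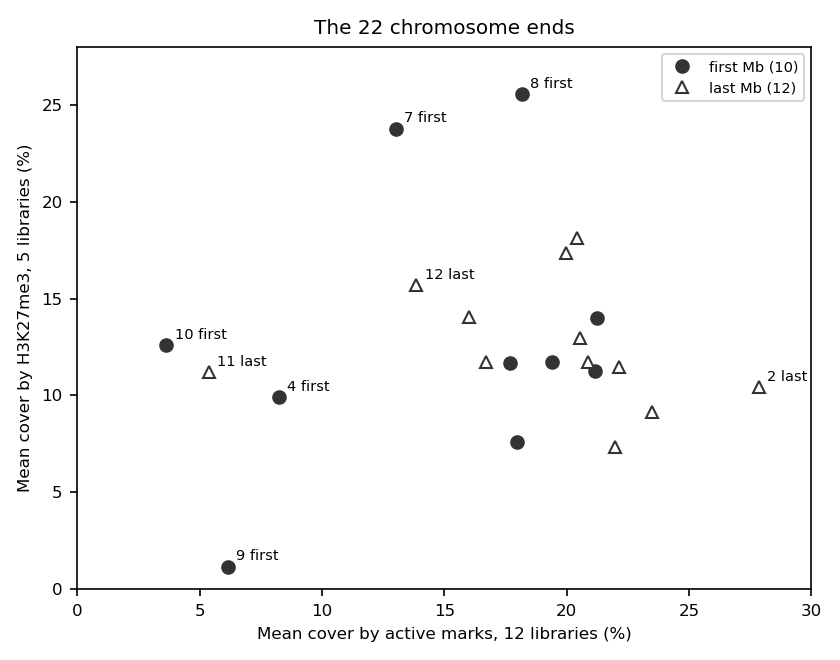
Mean cover by H3K27me3 (5 libraries without HHZ replicate 3) against mean cover by active marks (12 libraries) at each of the 22 ends, filled for the first and open for the last Mb. The starts of chromosomes 7 and 8 stand above the other ends in H3K27me3 at 23.8% and 25.5%, and the start of chromosome 9 is low in both at 1.16% and 6.14%.

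The widest peaks at the ends marked single domains found by several libraries. For H3K27me3 the widest in HHZ replicates 1 and 2 was the same domain of 37.1 and 37.5 kb at the start of chromosome 7 (chr7:453947-491044 and chr7:453869-491332, coordinates as in the files, on a build not given in the sources used here). JZ1560 replicates 2 and 3 covered 79.9% and 90.8% of the first of these peaks, JZ1560 replicate 1 34.6% and HHZ replicate 3 6.42%. In JZ1560 replicates 2 and 3 the widest was a domain of 31.4 and 32.0 kb at the start of chromosome 8 (chr8:402489-433938 and chr8:402456-434484). HHZ replicates 1 and 2 covered 99.1% and 98.8% of it, so both cultivars carried it, and HHZ replicate 3 covered 0%.

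No H3K4me1 or H3K36me3 peak lay in the chromosome 8 domain in any library, and HHZ H3K27ac covered 10.9% and 10.2% of the peak of JZ1560 replicate 2. In the chromosome 7 domain H3K36me3 covered 6.99% in HHZ and 19.1% in JZ1560. The widest peaks of JZ1560 H3K27me3 replicate 1 (9.87 kb, chr9:22064795-22074665) and HHZ replicate 3 (9.08 kb, chr8:28263545-28272623) were elsewhere. The second of these lay outside all other H3K27me3 lists and was 54.6% under peaks of the HHZ input and 86.3% under those of the JZ1560 input. It was also 64.9% under H3K4me3 of HHZ and 100% under H3K27ac of JZ1560, but 0% and 9.34% under H3K27ac of HHZ.

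For gene body marks a single domain at the start of chromosome 1 held the widest peak of 4 libraries. It was 34.5 kb for H3K36me3 in HHZ (chr1:335155-369658) and 34.6 kb in JZ1560, and 34.4 and 34.7 kb for H3K4me1 in JZ1560. Over the 35.9 kb that these peaks span (chr1:335144-371077), HHZ H3K4me1 covered 51.0% and 48.7%. H3K4me3 covered 3.99% to 5.59%, H3K27me3 covered 0% in JZ1560 and 0.718%, 1.57% and 3.78% in HHZ replicates 1, 2 and 3, and the inputs covered 17.6% in HHZ and 2.84% in JZ1560. The domain was thus one of gene body marks in both cultivars with little H3K4me3.

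The remaining widest peaks were shorter. HHZ H3K4me1 reached 6.97 kb at the last end of chromosome 10 and 6.29 kb at the start of chromosome 5. H3K4me3 reached 5.89 kb in HHZ and 4.64 kb in JZ1560 replicate 1 at 1 place on chromosome 8 (chr8:28263893-28269783) and 7.35 kb in JZ1560 replicate 2 on chromosome 1. HHZ H3K27ac reached 6.56 and 6.97 kb at chr5:29656330-29662891, a place that peaks of both inputs covered entirely, and JZ1560 H3K27ac reached 17.8 kb on chromosome 4. The widest input peaks were 12.5 kb in HHZ and 14.1 kb in JZ1560, both at the last end of chromosome 3. In each of the 20 lists the rest of the chromosomes held a wider peak than the ends. The rest is 349 Mb against 22 Mb of ends and holds far more peaks, so its widest peak is likely to be wider in any case.

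The cultivars were compared for H3K27me3 and H3K4me1, which had replicates in both. H3K27me3 covered 16.6% ± 1.8 of the ends in HHZ (SD, n = 3) and 9.75% ± 3.76 in JZ1560 (SD, n = 3), a difference of 6.84 percentage points with no overlap between the 2 groups (exact two-sided permutation p = 0.1, the smallest that 3 against 3 allows; adjusted p = 0.13). The difference was 7.52 points without HHZ replicate 3 (exact permutation p = 0.2), and 1.999 points among peaks free of input peaks. The log2 ratio of ends to rest was 0.21 ± 0.03 in HHZ and 0.31 ± 0.10 in JZ1560, a difference of -0.10 (exact permutation p = 0.1, adjusted p = 0.13). Weighting each end equally made it 0.04, so no direction is given for it.

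Cover at the ends followed cover elsewhere in this comparison. Every HHZ library was above every JZ1560 library in H3K27me3 cover at 12 of 22 ends, 54.5%, against 54.0% of all 365 tiles. With HHZ replicate 3 left out it was 20 ends, 90.9%, against 87.9% of tiles. No end or tile had the reverse order in the full set of libraries. The ends were thus like the chromosomes as a whole.

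H3K4me1 covered 12.1% ± 0.05 of the ends in HHZ and 24.9% ± 0.9 in JZ1560 (SD, n = 2 each), a difference of -12.8 points (exact two-sided permutation p = 0.333, the smallest that 2 against 2 allows). Among peaks free of input peaks it was -2.74 points. The end-to-rest ratio went the other way, with log2 values of 0.77 and 0.80 in HHZ above 0.60 and 0.60 in JZ1560, a difference of 0.18 (exact permutation p = 0.333, adjusted p = 0.361). JZ1560 was above HHZ in cover at 22 of 22 ends, and at 99.7% of all tiles.

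For the other marks a cultivar had 1 library, so values are set side by side without a test. H3K4me3 covered 12.3% of the ends in HHZ, between the 11.6% and 20.8% of the JZ1560 libraries. H3K36me3 covered 25.1% in HHZ and 27.8% in JZ1560. H3K27ac covered 4.86% in both HHZ libraries and 23.8% in the JZ1560 library, the widest gap between the cultivars for any mark.

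Windows of 1 kb touched by peaks in every library of 1 cultivar and in none of the other were counted. At the ends 246 windows held H3K27me3 of HHZ only, 1.12% of 22000, against a background of 1.15% over the 12 chromosomes. A further 79 (0.359%) held H3K27me3 of JZ1560 only, against 0.396%. Without HHZ replicate 3 the counts were 947 (4.30%, background 4.57%) and 93 (0.423%, background 0.441%). The ends were thus not richer in cultivar-specific H3K27me3 windows than the background by any of these counts. Windows with H3K27me3 in every library of both cultivars made up 1.46% of the ends (background 1.29%), and 7.20% without HHZ replicate 3 (background 5.51%).

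For H3K4me1, 108 end windows were of HHZ only, 0.491% against a background of 0.28%, and 2158 were of JZ1560 only, 9.81% against 7.72%. H3K4me1 in every library of both cultivars was found in 15.4% of end windows against 9.35% of all. The excess of cultivar-specific H3K4me1 windows at the ends thus went with an excess of H3K4me1 windows of any kind, 32.7% against 22.2%.

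The longest runs of H3K27me3 in JZ1560 only were free of every HHZ ChIP list and of both inputs. They measured 10 kb at the last end of chromosome 9 (chr9:22436001-22446000), 8 kb on chromosome 11 (chr11:28057001-28065000), 7 kb on chromosome 6 (chr6:983001-990000), 7 kb at the outermost edge of chromosome 11 (chr11:29010001-29016561) and 6 kb on chromosome 8 (chr8:808001-814000). None of the 9 HHZ ChIP libraries, whatever the mark, had a peak in any of these 5 runs.

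Runs of H3K27me3 in HHZ only reached 8 kb (chr12:26926001-26934000), 5 kb (chr5:29657001-29662000), 4 kb (chr2:459001-463000 and chr12:27116001-27120000) and 3 kb (chr1:224001-227000). The first had no JZ1560 ChIP peak and was 63.3% under peaks of the HHZ input, and the second was covered entirely by both inputs. Without HHZ replicate 3 the longest were 14 kb (chr11:28357001-28371000), 13 kb (chr12:26926001-26939000), 12 kb (chr5:820001-832000), 12 kb (chr11:28162001-28174000) and 10 kb (chr2:35923001-35933000). The first 4 had no peak in any of the 9 JZ1560 ChIP lists, and the fifth had peaks in 6 of them, of all 4 active marks.

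Runs of H3K4me1 in JZ1560 only reached 16 kb at the last end of chromosome 7 (chr7:29667001-29683000), where 2 of 9 HHZ libraries had a peak, and 15 kb on chromosome 1 (chr1:42657001-42672000) and 12 kb on chromosome 2 (chr2:35454001-35466000), where none had. The next were 12 kb on chromosome 5 and 10 kb on chromosome 1, with 3 of 9 HHZ libraries each. In HHZ only the longest were 5 kb (chr2:35109001-35114000 and chr3:265001-270000), and 75.4% and 85.5% of them lay under the HHZ input. At the ends there were 58 runs of at least 5 kb in JZ1560 only and 2 in HHZ only. Such runs were not counted over the whole chromosomes, so these counts show nothing particular to the ends. They also depend on peak width, the median H3K4me1 peak at the ends being 1120 to 1144 bp in HHZ and 3271 to 3488 bp in JZ1560.

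Whether libraries of the same mark overlapped more at the ends depended on the measure. Between the cultivars the Jaccard index of H3K27me3 was 0.486 at the ends and 0.434 in the rest without HHZ replicate 3, higher at the ends in 6 of 6 pairs. With it the means were 0.344 and 0.312, higher in 6 of 9 pairs. H3K4me1 had 0.449 and 0.400, higher in 4 of 4 pairs, and H3K36me3 had 0.824 and 0.796. H3K27ac had the lowest, 0.1203 and 0.0901. Within a cultivar the mean index was higher at the ends as well, 0.810 against 0.796 for H3K4me1 and 0.551 against 0.519 for H3K4me3. It was 0.660 against 0.655 for H3K27ac. For H3K27me3 it was 0.621 against 0.585 without HHZ replicate 3, and 0.448 against 0.428 with it, higher in 4 of 6 pairs. The index rises with cover. As a fold over the overlap that cover alone would give, libraries of 1 cultivar had lower values at the ends than in the rest. This fold was 6.83 against 11.5 for H3K4me1 of HHZ, 3.85 against 5.83 for H3K4me1 of JZ1560, 4.78 against 6.82 for H3K4me3 of JZ1560 and 16.4 against 25.7 for H3K27ac of HHZ. For H3K27me3 it was 5.29 against 5.97 in HHZ without replicate 3, 2.52 against 2.96 with it, and 7.84 against 9.29 in JZ1560. The highest fold that can be reached falls as cover rises, so a lower fold does not show less overlap. The mean share of bases under the other library was 82.4% at the ends and 80.7% in the rest for H3K4me1 of HHZ. It was 95.9% and 95.7% for H3K4me1 of JZ1560, 77.4% and 75.8% for H3K4me3 of JZ1560, and 79.5% and 79.1% for H3K27ac of HHZ. For H3K27me3 it was 75.8% and 73.6% in JZ1560, 91.3% and 89.9% in HHZ without replicate 3, and 42.8% and 43.5% with it. This share also rises with cover.

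H3K27me3 kept apart from H3K4me1 and H3K36me3 at the ends, but not from H3K27ac. In JZ1560, 1.39% of H3K27me3 bases at the ends lay under H3K4me1 and 2.99% under H3K36me3, although these marks covered 24.9% and 27.8% of the ends. In HHZ, 0.965% of H3K27me3 bases lay under H3K4me1 without replicate 3, and 5.92% with it. The overlap of H3K27me3 with H3K27ac was 1.21 times that expected from cover at the ends of HHZ without replicate 3 (1.63 in the rest) and 1.63 times with it (2.13 in the rest). In JZ1560 it was 0.88 times at the ends and 1.22 in the rest. H3K4me1 and H3K36me3 shared most of their bases, with 82.8% of HHZ H3K4me1 bases and 79.5% of JZ1560 H3K4me1 bases at the ends lying under H3K36me3.

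H3K27me3 and H3K4me3 met in more windows at the ends than elsewhere. In HHZ 553 end windows were touched by both (H3K27me3 without replicate 3), 2.51% against a background of 1.58%, and in JZ1560 919, 4.18% against 3.02%. H3K4me3 itself was in 19.4% of HHZ end windows against 12.9%, and in 29.7% against 21.6% in JZ1560, so the excess was close to that of H3K4me3 alone. All 4 active marks were together in 2.05% of HHZ end windows against 1.0%, and in 12.3% against 7.67% in JZ1560.

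Windows with no ChIP peak in any of the 18 lists made up 31.5% of the ends, against 42.9% of all windows. The start of chromosome 9 had the highest share of them, 71.3%, followed by the start of chromosome 10 with 60.0% and the last end of chromosome 11 with 58.2%. The last end of chromosome 2 had the lowest, 14.7%. The longest stretch with no ChIP peak was 137 kb at the last end of chromosome 6 (chr6:30621001-30758000), followed by 107 kb on chromosome 11 (chr11:28521001-28628000) and 103 kb at the start of chromosome 9 (chr9:41001-144000).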

How the data were processed

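Peaks had been called with MACS for each library separately, per the file headers, from 51 bp single reads, per the labels' protocols. Each deposited list gives peak positions in bp and a score, which the authors deposited on a scale that the headers do not define, with a lowest value of 50. Per the submitters' processing notes, FastQC, BWA, TopHat2 and HTSeq were used, with no version stated. Build, control and peak threshold: not given in the sources used here. Coordinates are those of the files, counted from 1, and 2 starts below 0 were set to the first base. Read depth is unknown, so no counting interval is given. The input lists were measured in the same way as the ChIP lists.

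Overlapping peaks of a list were merged for cover, and peaks were assigned by their midpoint. Tests were exact two-sided permutations over libraries with Benjamini-Hochberg adjustment over 13 tests and a threshold of 0.05, tested on simulated data (Python 3.11.15, numpy 2.4.6, pandas 2.3.3). Windows were of 1 kb and tiles of 1 Mb. The first Mb of chromosomes 11 and 12 entered neither region. The regions named are, for each mark, the 3 ends of highest and the 3 of lowest mean cover, the widest peak of each library, the 5 longest runs of windows of 1 cultivar, and the longest and shortest distances to a ChIP peak. The other regions given were chosen after their values were seen. The ends, the lists and the tests were chosen with earlier results of these data known. Wheat, RNA and re-sequencing samples were not used here, nor were gene names or sequences.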

Additional observations from a re-analysis of the deposited data

Results flagged for a closer look

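Among 10 checks for a library far from the rest, 5 measures each for H3K27me3 and H3K4me1, 2 gave such a value. Chance flags about 1 in 20 checks, and measures of the same libraries are not independent. The other marks had too few libraries to be checked. JZ1560 H3K27me3 replicate 1 had a log2 ratio of ends to rest of 0.43, against 0.19 to 0.26 in the other 5 H3K27me3 libraries, a gap of 0.690 of the range. This list also had the least cover of the 6, 5.64% of the ends. HHZ H3K27me3 replicate 3 had a first minus last difference of -6.88 percentage points, against 0.23 to 0.75 in the other 5, a gap of 0.932 of the range.

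The median width of H3K4me1 peaks at the ends over the rest differed between the cultivars by 0.0695 on the log2 scale, with both HHZ libraries above 0 and both JZ1560 libraries below. The difference was not tested. The end-to-rest ratio of H3K27me3 was below that of the active marks, with a difference of -0.36 on the log2 scale (exact two-sided permutation, adjusted p = 7.003e-04). That test takes libraries of all marks as exchangeable, so its p-value does not measure the spread between marks.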

How the results depend on the processing

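Of 128 alternatives that left out no library, 108 were counted as unchanged, and of 124 that left out 1 library 118 were. For tested results this means the same direction and side of the threshold. Window counts and outer 100 kb ratios were not tested, and were judged by how far they moved. Some tests could not cross the threshold in any case. The smallest possible p was 0.1 for 3 libraries against 3, 0.333 for 2 against 2 and 0.0625 for swaps in 5 libraries. For those the side of the threshold was fixed beforehand. The exceptions were these. The active marks' median width lost its call at 0.0254 among peaks free of input peaks (adjusted exact permutation p = 0.174), and at 0.0254 with the starts of chromosomes 11 and 12 kept (adjusted exact permutation p = 0.0924). H3K27me3 first minus last turned from -0.74 to 1.198 points among peaks free of input peaks, and its range over left-out libraries was -1.03 to 0.49. The H3K27me3 cultivar difference in ratio turned from -0.10 to 0.0383 with equal weight per end. The H3K27me3 ratio of outer 100 kb to next 900 kb was 0.460 at first and 0.807 at last ends, in place of 0.641. The cause was not tested.

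Cultivar-specific windows moved with the length of an end, by construction. H3K27me3 of HHZ and of JZ1560 and H3K4me1 of HHZ and of JZ1560 gave 128, 37, 43 and 1073 at 0.5 Mb and 547, 133, 193 and 4266 at 2 Mb. At a score of 100 or more, H3K27me3 of HHZ gave 126 and H3K4me1 36 and 3382. Without peaks touching input, H3K27me3 of JZ1560 gave 313 and H3K4me1 833 and 1211. Over left-out libraries these 4 counts ranged from 251 to 947, 79 to 157, 119 to 184 and 2236 to 2628. H3K27me3 of HHZ gave 461 without its replicate 1, H3K27me3 of JZ1560 157 without its replicate 1, and H3K4me1 of HHZ 173 and 184 without replicates 1 and 2.

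Over left-out libraries the log2 ratios ranged from 0.23 to 0.28 for H3K27me3 cover, 0.61 to 0.64 for active cover, and -0.40 to -0.35 for their difference. Same-numbered libraries of the 2 cultivars did not consistently deviate together (correlations over tiles of 0.36, -0.31 and 0.26 for H3K27me3), and not every library correlated best with its own number. With a replicate block the H3K27me3 and H3K4me1 cover differences stayed at 6.84 and -12.8 points and the ratio differences at -0.10 and 0.18 (exact permutation p = 0.25 and 0.5, the smallest possible). The alternatives on the outer 100 kb were chosen after seeing the data. Precision is limited by the number of libraries, and with 5 H3K27me3 libraries p cannot go under 0.0625.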
